A study of Mus musculus with 23 samples.

Results

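Expression of 10 identity genes of mouse alveolar macrophages, the resident phagocytes of the air spaces, was followed across lungs that had been exposed to bacterial lipopolysaccharide (LPS) or to clean air. They were Marco, Chil3, Pparg, Fabp4, Siglecf, Ear2, Plet1, Krt79, Mrc1 and Cd68. Each was found by its symbol in GENCODE mouse release M21, which gave 10 of the 41388 gene IDs in the count table, and all 10 were among the 17148 genes that had enough counts to be tested. The samples were lungs of male Balb/c mice, with 1 RNA-seq library for each of 23 mice. Mice of the LPS+nAAT, LPS+oxAAT and LPS+recAAT groups (n = 5 each) inhaled an LPS aerosol (0.21 mg/ml, 10 min on each of 3 days), and 1 h after each exposure received human alpha1-antitrypsin (AAT, 4 mg/kg) in the peritoneum. AAT, the main protease inhibitor of plasma, was given in native (nAAT), oxidized (oxAAT) or recombinant (recAAT) form. LPS mice (n = 5) had the aerosol without AAT and air mice (n = 3) had clean air on the same schedule, with saline as the labels' alternative to AAT. Lungs were collected 6 h after the last dose, and the labels give no age. Mice given the peptide C-36 were not analysed here.

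Alveolar macrophages take up surfactant, debris and microbes, and renew themselves locally under GM-CSF and TGF-beta, which together induce the nuclear receptor PPAR-gamma. PPAR-gamma in turn directs their lipid-handling and surface programme. During LPS inflammation the resident cells can change their transcripts or die, while monocytes and neutrophils enter the same air spaces. RNA of a whole lung mixes all of these cells, so more cells of a type and more RNA per cell cannot be told apart in any value given here.

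Levels are given as TMM-scaled CPM (counts scaled to a common library total), and differences as log2 fold changes with a standard error (SE). P-values are from edgeR's quasi-likelihood F test, adjusted by Benjamini-Hochberg over all 17148 genes, and a gene was called where the adjusted p was under 0.05. Libraries held 14.8 to 47.9 M gene counts (median 28.7 M). The lung label held, with Sftpc at 11600 to 18700 CPM and Scgb1a1 at 21000 to 43800 CPM. Beyond their labels, libraries differed in mt-Nd6 relative to mt-Nd5, genes on opposite strands of the mitochondrial genome, and are grouped by it here into a first and a second set. The mt-Nd6 count was 0.338% to 1.14% of the mt-Nd5 count in the first set of 15 libraries, and 3.39% to 4.5% in the second set of 8. All LPS+nAAT, LPS and air libraries and LPS+oxAAT 5101 and 5102 were in the first set. LPS+oxAAT 5103, 5104 and 5105 and all LPS+recAAT libraries were in the second. Since LPS+oxAAT alone spans both sets, any estimate that parts LPS+recAAT from the set rests on those 5 libraries.

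The windows around the start sites of the 3 members that were called higher after LPS are shown first, because these members moved together in that direction. Each runs from 250 bases before to 50 bases after the start site in RefSeq (build GRCm38.p6), 5′ to 3′ on the gene's strand. Capitals mark matches, on either strand, to motifs of factors known from macrophages. The motifs searched were AP-1 (TGANTCA), the ETS core bound by PU.1 (GAGGAAG), C/EBP (TTNNGCAAT), the nuclear receptor half-site (AGGTCA) and NF-kB (GGGA, any 2 bases, TTCC), and no 2 matches overlapped. In Marco (chr1:120504975-120505274, minus strand) the capitals are an ETS core at position -146. In Plet1 (chr9:50494275-50494574, plus strand) they are an AP-1 match at -144 and a half-site on the other strand at -62. In Cd68 (chr11:69666121-69666420, minus strand) they are AP-1 matches at -149 and -24.
Marco: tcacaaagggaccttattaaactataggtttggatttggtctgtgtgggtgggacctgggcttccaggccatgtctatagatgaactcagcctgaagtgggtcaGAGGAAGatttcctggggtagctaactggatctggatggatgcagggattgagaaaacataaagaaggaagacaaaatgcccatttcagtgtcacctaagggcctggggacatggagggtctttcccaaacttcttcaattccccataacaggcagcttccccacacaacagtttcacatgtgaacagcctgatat
Plet1: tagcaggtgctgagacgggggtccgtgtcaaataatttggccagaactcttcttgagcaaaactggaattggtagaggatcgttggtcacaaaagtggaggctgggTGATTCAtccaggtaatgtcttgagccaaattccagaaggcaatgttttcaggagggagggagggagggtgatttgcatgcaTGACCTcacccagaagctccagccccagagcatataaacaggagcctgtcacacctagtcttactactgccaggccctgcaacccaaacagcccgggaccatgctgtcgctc
Cd68: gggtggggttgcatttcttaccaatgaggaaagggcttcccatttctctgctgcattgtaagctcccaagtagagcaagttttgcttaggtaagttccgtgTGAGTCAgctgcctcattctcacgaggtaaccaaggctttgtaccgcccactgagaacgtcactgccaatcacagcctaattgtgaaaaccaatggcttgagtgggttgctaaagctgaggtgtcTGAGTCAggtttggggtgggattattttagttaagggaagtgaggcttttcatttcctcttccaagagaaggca
Of 32851 promoter windows of this length, 7.81% held an AP-1 match, 13.6% an ETS core, 16.3% a half-site, 2.18% a C/EBP match and 1.47% an NF-kB match. Among the other members with a window, ETS cores stood in Siglecf at -66 and in Mrc1 at -168 and -36, and Pparg had a half-site in 2 of its windows. A match describes the letters of the window and says nothing of binding.

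Ear2 and its paralog Ear1 are shown because their levels followed each other most closely of all pairs described below. The window of Ear2 was chr14:44102404-44102703 on the plus strand and that of Ear1 chr14:43819590-43819889 on the minus strand. Over 297 aligned bases 294 were identical (99%), and capitals mark the bases that differ or stand opposite a gap.
Ear2: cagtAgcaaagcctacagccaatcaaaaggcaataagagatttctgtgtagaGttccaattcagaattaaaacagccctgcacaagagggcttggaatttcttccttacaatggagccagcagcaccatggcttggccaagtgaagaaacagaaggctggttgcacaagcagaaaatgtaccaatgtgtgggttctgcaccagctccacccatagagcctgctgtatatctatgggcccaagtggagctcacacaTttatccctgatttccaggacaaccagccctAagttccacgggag
Ear1: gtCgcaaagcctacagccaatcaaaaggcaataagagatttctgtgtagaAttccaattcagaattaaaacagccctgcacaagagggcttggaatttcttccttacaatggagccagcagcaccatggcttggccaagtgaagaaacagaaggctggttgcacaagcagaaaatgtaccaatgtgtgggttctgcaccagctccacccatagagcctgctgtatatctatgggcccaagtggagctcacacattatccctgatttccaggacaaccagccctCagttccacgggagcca
Neither window held a match to the motifs searched.

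After LPS, 3 of the 10 genes rose (Marco, Cd68 and Plet1), 1 fell (Ear2) and 6 did not pass the test. Over all tested genes, 4.39% were called between LPS and air, 2.71% higher and 1.68% lower. The 10 log2 fold changes ran from -0.61 to 2.60 with a median of 0.29, against a median of -0.01 over all genes. The LPS and air groups did not overlap for 4 members that were higher (Marco, Cd68, Plet1 and Chil3) and 1 that was lower (Ear2), while such separation upward was seen in 5.31% of all genes and downward in 5.97%. All 8 of these libraries were in the first set. Members moved in different directions in the same lungs, though the 1 called fall, in Ear2, was narrow, as given below. Some members are also made by other cells of the lung, so a split within 1 cell type was not shown.

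**Figure D1:**
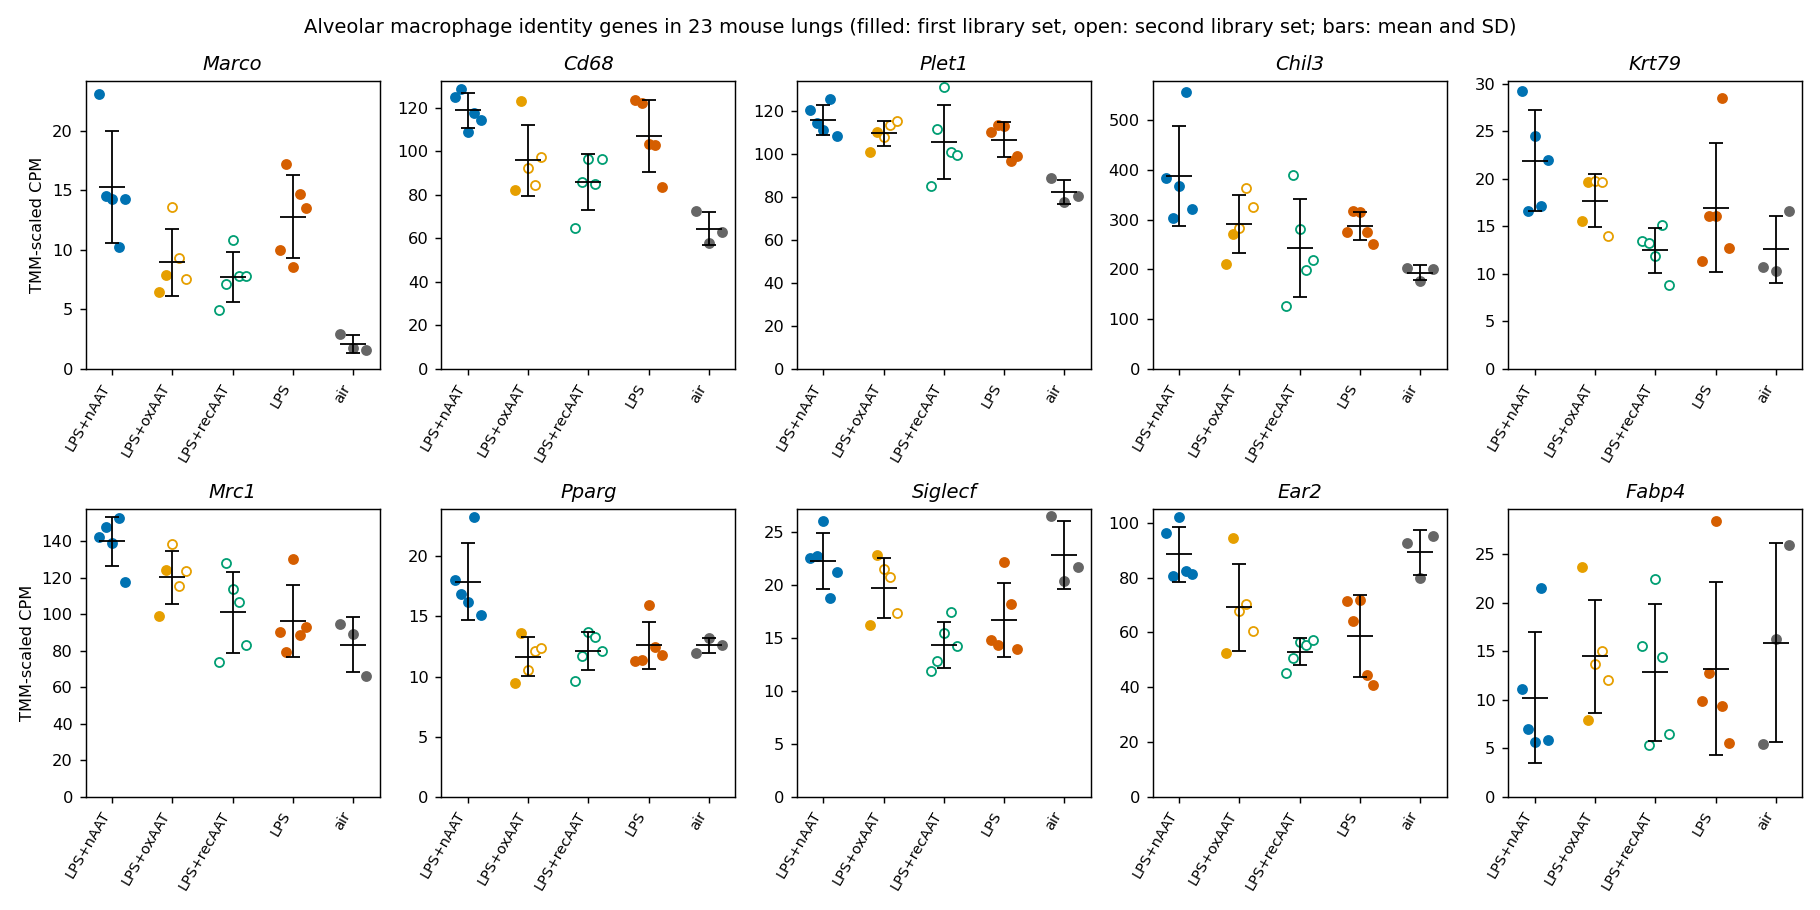
TMM-scaled CPM (vertical axes, from 0) of each gene in LPS+nAAT, LPS+oxAAT, LPS+recAAT, LPS and air lungs; points are mice, filled for the first and open for the second library set, and bars are mean and SD. Marco lay at 8.56 CPM or more in every LPS lung and at 2.96 or less in every air lung, Ear2 lay lower in LPS than in air, and Fabp4 spread widely in all 5 groups.

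Marco had the largest difference of the 10. Marco (ENSMUSG00000026390, chromosome 1, 120474538 to 120505024, minus strand) encodes a class A scavenger receptor that binds bacteria and particles. It stood at 10.0, 17.22, 8.558, 14.72 and 13.54 CPM in the 5 LPS lungs, against 2.958, 1.784 and 1.587 CPM in the 3 air lungs. Every LPS lung was above every air lung, and the log2 fold change was 2.60 ± 0.32 (SE; edgeR adjusted p = 1e-05), a 6.04-fold difference. Only 42 to 82 reads per library were behind the air values. Leaving out any 1 of the 8 libraries gave 2.43 to 2.92, with the call kept each time.

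Cd68 (ENSMUSG00000018774, chromosome 11, 69664213 to 69666153, minus strand) encodes a lysosomal glycoprotein of macrophages in general. Its levels were 123.6, 122.0, 103.2, 102.9 and 83.36 CPM in LPS lungs and 72.7, 57.73 and 62.97 CPM in air lungs. The groups did not overlap, and Cd68 rose by 0.73 ± 0.14 on the log2 scale (edgeR adjusted p = 0.0022), a call kept in each leave-out. Mrc1 (ENSMUSG00000026712, chromosome 2, 14229392 to 14332057, plus strand) encodes the mannose receptor CD206, a surface receptor of macrophages that is not limited to alveolar ones. Its levels were 90.3, 79.23, 130.3, 88.73 and 92.85 CPM in LPS lungs and 94.67, 89.28 and 66.1 CPM in air lungs. These overlapped, with LPS library 1103 above all others, and the log2 fold change of 0.21 ± 0.17 did not pass the test (edgeR adjusted p = 0.552). The 3 receptors of particles and sugars therefore had differences of 2.60, 0.73 and 0.21 in the same libraries.

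Among secreted proteins the direction was split. Chil3 (ENSMUSG00000040809, chromosome 3, 106147554 to 106167564, minus strand) encodes Ym1, a chitinase-like protein without enzyme activity. It measured 275.7, 317.0, 315.1, 275.6 and 251.4 CPM in LPS lungs, against 203.2, 176.3 and 200.6 CPM in air lungs. All LPS lungs were above all air lungs, yet with the spread of the 5 groups pooled the log2 fold change of 0.57 ± 0.24 did not pass (edgeR adjusted p = 0.21). Fitted on LPS and air alone, where Chil3 varied less, the adjusted p was 0.019. Of its 50-base stretches, 26.9% also occur in other transcripts, most in its paralog Chil4, which had at most 2 reads in any library.

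Ear2 (ENSMUSG00000072596, chromosome 14, 44102654 to 44103534, plus strand) encodes an eosinophil-associated ribonuclease that alveolar macrophages of mice also make. It measured 71.53, 64.22, 71.86, 44.47 and 40.77 CPM in LPS lungs and 92.69, 79.88 and 95.09 CPM in air lungs. No LPS lung reached the lowest air lung, and Ear2 fell by 0.61 ± 0.17 on the log2 scale (edgeR adjusted p = 0.0398). The call was narrow, since it was lost without LPS 1102, 1104 or 1105 or any 1 of the 3 air libraries, with adjusted p up to 0.142. It was also lost when only the first library set was fitted (edgeR adjusted p = 0.104), or only LPS and air (0.128). Other transcripts share 41.5% of Ear2's 50-base stretches, most of all Ear10, which had at most 1 read in any library. Ear2 counts are thus uncertain to the extent that reads of the family were split or dropped.

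Eosinophils also carry Ear2 and Siglecf. Their defining granule genes were at or near 0 in all lungs. Epx had no read in 19 of 23 libraries and 1 read at most, and Prg2 had no more than 0.293 CPM in any library. The summed level of 8 eosinophil markers was 5.16 to 10.6 CPM in LPS lungs and 5.63 to 7.43 CPM in air lungs. Il5ra, which encodes a chain of the eosinophil's IL-5 receptor, was the only marker of this list called (-1.53 ± 0.41, edgeR adjusted p = 0.0284). It had 0.119 to 0.355 CPM in LPS lungs and 0.325 to 0.908 CPM in air lungs. Means went both ways in uncalled markers. In LPS and air lungs they were 0.838 and 0.484 CPM for Ccr3, 4.41 and 2.3 for Alox15, and 1.86 and 3.0 for Ccl11. The part of eosinophils in the Ear2 and Siglecf values was not tested.

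Pparg (ENSMUSG00000000440, chromosome 6, 115360951 to 115490399, plus strand) encodes the nuclear receptor described above. It stood at 11.31, 11.41, 15.98, 12.45 and 11.8 CPM in LPS lungs and 11.94, 13.17 and 12.66 CPM in air lungs. Group means were 12.59 CPM in both, and the log2 fold change was 0.00 ± 0.15 (edgeR adjusted p = 0.997). Fabp4 (ENSMUSG00000062515, chromosome 3, 10204088 to 10208576, minus strand) encodes a fatty acid binding protein, a PPAR-gamma target shared with adipocytes and capillaries. It ranged over 9.906, 12.71, 28.45, 9.383 and 5.51 CPM in LPS lungs and 5.448, 16.28 and 25.93 CPM in air lungs. The spread within each group covered the other, and the log2 fold change was -0.26 ± 0.59 (edgeR adjusted p = 0.87).

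Fabp4 varied together with genes of fat. After group means were subtracted, the 3 genes whose log2 CPM was most like that of Fabp4 over the 23 libraries were Adipoq, the adipocyte hormone adiponectin (Pearson r = 0.93), Car3 (0.93) and Cyp2e1 (0.92), both also expressed in mouse fat, out of 17147 genes compared. LPS 1103 had 28.45 CPM of Fabp4 and 5.52 CPM of Adipoq, whereas LPS 1105 had 5.51 CPM of Fabp4 and 0.178 CPM of Adipoq. Across groups the summed level of 8 adipocyte markers was 3.19 to 24.6 CPM in LPS+nAAT, 10.5 to 47.2 in LPS+oxAAT, 2.03 to 34.0 in LPS+recAAT, 2.84 to 48.6 in LPS and 4.73 to 39.1 in air. The part of fat in the Fabp4 values was not tested. Correlations of Fabp4 with the other 9 members lay between -0.33 (Marco) and 0.38 (Pparg).

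**Figure D2:**
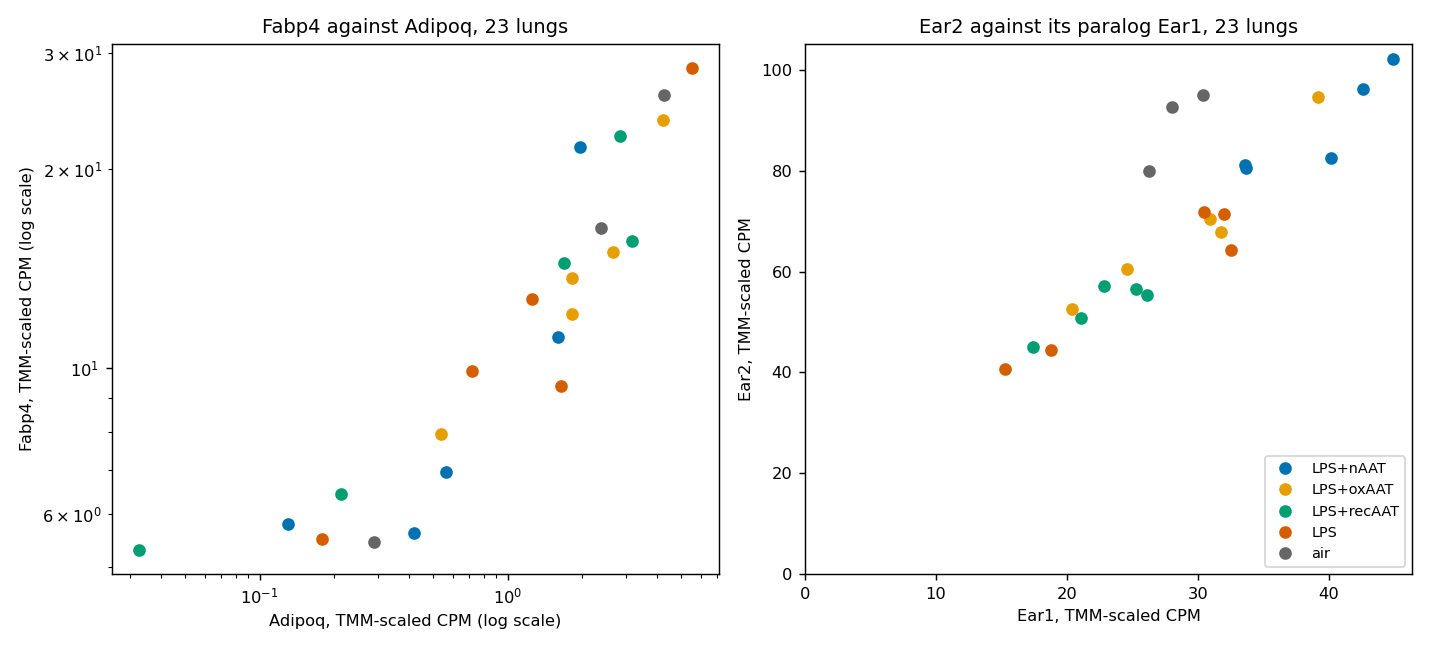
Left, Fabp4 against Adipoq, and right, Ear2 against its paralog Ear1, in TMM-scaled CPM (log axes on the left, linear axes from 0 on the right); each point is 1 of 23 lungs, coloured by group. Fabp4 is high where Adipoq is high in every group, and the 3 air lungs have more Ear2 for their Ear1 than the other lungs.

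The remaining members are a surface receptor, a surface protein and a keratin. Siglecf (ENSMUSG00000039013, chromosome 7, 43351341 to 43359531, plus strand) encodes the sialic acid receptor by which mouse alveolar macrophages are sorted. Its levels were 14.79, 14.36, 22.13, 18.17 and 13.93 CPM in LPS lungs and 26.48, 20.4 and 21.66 CPM in air lungs. Of the 5 LPS lungs 4 were below all air lungs, and LPS 1103, at 22.13 CPM, was the exception. The log2 fold change of -0.45 ± 0.15 did not pass (edgeR adjusted p = 0.0967), and without LPS 1103 it was -0.58 and passed (adjusted p = 0.0213).

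Plet1 (ENSMUSG00000032068, chromosome 9, 50494525 to 50505482, plus strand) encodes a surface protein with a lipid anchor, found on epithelial progenitors and on alveolar macrophages of mice. It had 110.4, 113.6, 113.2, 96.9 and 99.25 CPM in LPS lungs and 88.75, 77.87 and 80.31 CPM in air lungs. The groups did not overlap and Plet1 rose by 0.37 ± 0.10 on the log2 scale (edgeR adjusted p = 0.0375), with the smallest SE of the members. The call was lost without LPS 1101, 1102 or 1103 or air 2102 or 2105, with adjusted p up to 0.174. It was also lost when only LPS and air were fitted (edgeR adjusted p = 0.0953). Exons of the antisense gene Plet1os overlap those of Plet1 over 261 bases. Libraries were stranded, but the strand setting of the counting is not given in the sources used here. Krt79 (ENSMUSG00000061397, chromosome 15, 101929332 to 101940324, minus strand), a keratin gene otherwise known from hair follicles and sebaceous glands, had 11.41, 16.07, 16.1, 28.5 and 12.76 CPM in LPS lungs and 10.72, 10.35 and 16.67 CPM in air lungs. The groups overlapped and the log2 fold change was 0.43 ± 0.25 (edgeR adjusted p = 0.375).

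The count of 4 called members fell to 2 without LPS 1102, air 2102 or air 2105. Per kilobase of exon the order of the members differed between the conditions. In LPS lungs Chil3 was highest, at a mean of 176 CPM per kb, followed by Cd68 (85.1), Ear2 (81.5) and Plet1 (54.8). Cd68 and Ear2 were closer there than the spread between mice. Mrc1 followed at 15.1 CPM per kb, Marco at 6.65, Siglecf at 5.98, Pparg at 4.26, Krt79 at 3.57 and Fabp4 at 2.94. The exon length used for Fabp4 was 4489 bases in 1 block, the whole span of the gene. Introns would be counted in that length, so the value of Fabp4 may be too low and its place in the order is uncertain. In air lungs Ear2 (124 CPM per kb) and Chil3 (118) led with close levels, and Marco came last at 1.1 CPM per kb. Marco was thus the scarcest of the 10 per length in air lungs. In LPS lungs its mean and that of Siglecf were closer than the spread between mice.

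Of 29 tested other genes high in mouse alveolar macrophages, in a list of 30, 13 rose after LPS, none fell and 16 did not pass, with a median log2 fold change of 0.37. Over all genes 2.71% rose and 1.68% fell. They included Ctsk, a lysosomal protease (1.64 ± 0.14, edgeR adjusted p = 1.41e-08), and Il1rn, the IL-1 receptor antagonist (1.60 ± 0.14, 3.1e-08). Itgax, the integrin CD11c that marks these cells, rose by 1.04 ± 0.13 (6.27e-06), and F7, coagulation factor VII, by 1.02 ± 0.13 (1.47e-05). Ear1 was at -0.13 ± 0.21 (0.809), and its level was 15.3 to 32.5 CPM in LPS lungs against 26.3 to 30.4 CPM in air lungs.

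**Figure D3:**
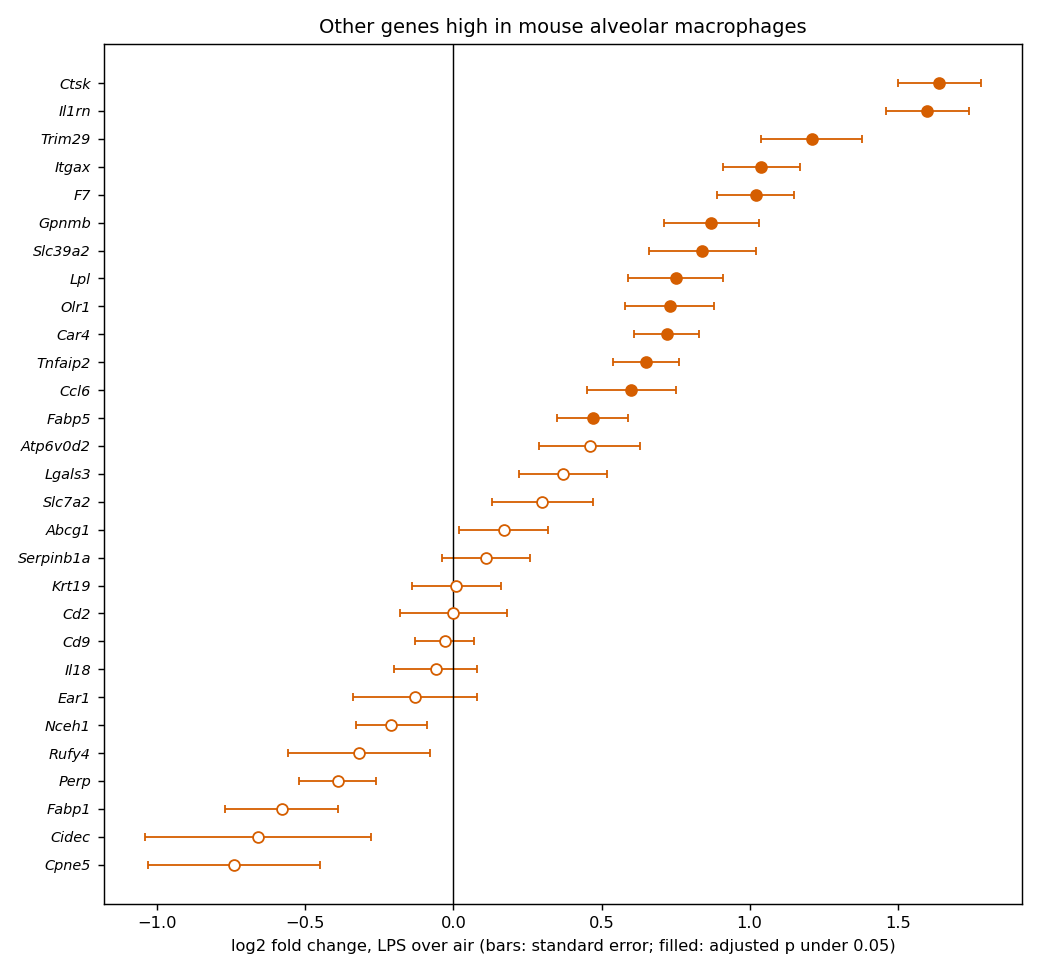
Log2 fold changes of LPS over air (horizontal axis) for the 29 tested other genes high in mouse alveolar macrophages, with SE as bars; filled points have an adjusted p under 0.05. The 13 filled points all lie to the right of 0, with Ctsk at 1.64 and Il1rn at 1.60 on top.

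Signals and factors that induce the alveolar macrophage programme rose in part. Of 22 genes, 5 rose and none fell (median 0.10). Csf2, which encodes the inducing cytokine GM-CSF, stood at 5.46 to 12 CPM in LPS lungs and at 2.4 to 3.72 CPM in air lungs, and rose by 1.37 ± 0.25 (edgeR adjusted p = 0.000943). Both beta chains of its receptor rose as well, Csf2rb2 by 1.03 ± 0.13 (9.28e-06) and Csf2rb by 1.0 ± 0.13 (1.46e-05). These are closely related genes, so their counts are uncertain. Egr2, a zinc finger factor of macrophages, rose by 1.20 ± 0.24 (0.00269). Pparg, which lies downstream of GM-CSF, was at 0.00 as given above.

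Markers of other cells moved in the same lungs. Of 14 pan-macrophage genes 3 rose, led by Adgre1, which encodes F4/80 (0.97 ± 0.17, edgeR adjusted p = 0.000484). The summed level of the 14 was 10200 to 11800 CPM in LPS lungs and 7980 to 9790 CPM in air lungs. Lyz2, which was not called, held a large part of that sum, with means of 7620 CPM in LPS and 5740 CPM in air lungs. Other uncalled means went both ways, at 201 and 164 CPM for Csf1r and 183 and 199 CPM for Axl in LPS and air lungs. Of 18 monocyte and interstitial macrophage genes 7 rose, led by Cd14, the LPS co-receptor (2.23 ± 0.16, 1.18e-09). Their summed level was 3520 to 4340 CPM in LPS lungs and 2080 to 2120 CPM in air lungs. Chil1, also among those that rose, held a large part of that sum, with means of 2400 CPM in LPS and 880 CPM in air lungs. Means of uncalled genes in this list went both ways. In LPS and air lungs they were 22.4 and 21.7 CPM for Ly6c2, 40.8 and 46.2 for Ccr2, and 418 and 341 for Fn1. Of 14 neutrophil genes 2 rose, Clec4d (1.37 ± 0.14, 4.19e-07) and Il1r2 (2.06 ± 0.34, 0.000406), and the sums were 356 to 471 CPM in LPS lungs and 229 to 319 CPM in air lungs. Cd68 is shared by all these phagocytes. The part of incoming cells in its rise, or in that of Marco, was not tested.

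Lists of related function held a few rises each. Among 14 scavenger receptors other than the members, Msr1 (1.41 ± 0.16, edgeR adjusted p = 4.46e-06), Olr1 (0.73 ± 0.15, 0.00426) and Clec7a (0.79 ± 0.19, 0.0184) rose and none fell, with a list median of 0.00. Among 13 genes of alternative activation, of which 10 were tested, Ccl17 (1.71 ± 0.24, 5.85e-05) and Retnla (1.58 ± 0.26, 0.000419) rose and none fell (median 0.36). Of 10 dendritic cell genes 2 rose, of 13 alveolar epithelial genes Sftpd rose (1.03 ± 0.11, 1.92e-06) and Etv5 fell (-0.47 ± 0.09, 0.00136), and of 4 tested eosinophil genes Il5ra fell (-1.53 ± 0.41, 0.0284). In the adipocyte (7 tested), endothelial (10), airway epithelial (10) and lung identity (5) lists edgeR called none, with 0, 3, 1 and 0 genes at an unadjusted p under 0.05. Of 7 genes of liver and heart muscle Ttr fell (-3.54 ± 0.96, 0.032), and the median sums were 232 CPM in LPS lungs and 155 CPM in air lungs.

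In LPS+nAAT lungs 9 of the 10 genes had a higher mean than in LPS lungs, but none passed edgeR's test. Over all genes 0.595% were called between LPS+nAAT and LPS, whose libraries were all in the first set. The 10 log2 fold changes ran from -0.39 to 0.59 with a median of 0.39, against 0.00 over all genes. At an unadjusted p under 0.05 there were 5 members, and the DESeq2 Wald test called 3 of them, Ear2 (adjusted p = 0.011), Pparg (0.014) and Mrc1 (0.021), along with 2.5% of all genes. Without LPS 1103, edgeR called those 3 and Siglecf, the 4 having adjusted p between 0.0229 and 0.0482, along with 0.83% of all genes. LPS 1103 was the LPS lung highest in Pparg, Mrc1, Siglecf and Ear2.

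Ear2 was the member whose groups separated. LPS+nAAT lungs had 96.17, 80.48, 102.1, 82.59 and 81.15 CPM, all above the 40.77 to 71.86 CPM of LPS lungs. The log2 fold change was 0.59 ± 0.15 (edgeR adjusted p = 0.0585). Separation upward was seen in 1.99% of all genes. Mean Ear2 was 88.5 ± 9.96 CPM in LPS+nAAT, 58.6 ± 14.9 CPM in LPS (SD, n = 5 each) and 89.2 ± 8.18 CPM in air (SD, n = 3). LPS+nAAT against air gave -0.01 ± 0.17 (edgeR adjusted p = 0.987).

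Pparg had 18.05, 16.87, 16.18, 23.28 and 15.13 CPM in LPS+nAAT lungs, of which 4 were above every LPS lung (0.50 ± 0.13, edgeR adjusted p = 0.0585). Mrc1 had 142.3, 147.6, 139.2, 153.0 and 117.7 CPM, again 4 of 5 above every LPS lung (0.54 ± 0.14, adjusted p = 0.0735). Siglecf had 22.51, 22.76, 26.03, 18.77 and 21.22 CPM, 3 of 5 above every LPS lung (0.41 ± 0.13, 0.141). Marco stood at 23.11, 14.51, 14.25, 10.22 and 14.32 CPM in LPS+nAAT lungs, 1 of them above every LPS lung, and its log2 fold change was 0.26 ± 0.23 (adjusted p = 0.628). Levels of the other members overlapped between these groups. Chil3 had 383.5, 304.3, 368.2, 557.5 and 322.4 CPM in LPS+nAAT lungs (0.43 ± 0.21, edgeR adjusted p = 0.335), with library 4104 far above the rest. Krt79 had 29.29, 16.61, 24.56, 17.15 and 22 CPM (0.37 ± 0.21, 0.423). Cd68 had 124.8, 128.6, 108.6, 117.5 and 114.3 CPM (0.15 ± 0.12, 0.578), the narrowest spread of any group for this gene relative to its mean. Plet1 had 120.3, 114.5, 111.2, 125.4 and 108.2 CPM (0.12 ± 0.09, 0.549), and Fabp4 11.15, 6.95, 5.616, 21.57 and 5.799 CPM (-0.39 ± 0.52, 0.771). The summed level of pan-macrophage genes was 11300 to 13800 CPM in LPS+nAAT and 10200 to 11800 CPM in LPS. Lyz2 held a large part of it, with means of 8910 CPM in LPS+nAAT and 7620 CPM in LPS. The part of this summed level in the member values was not tested.

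**Figure D4:**
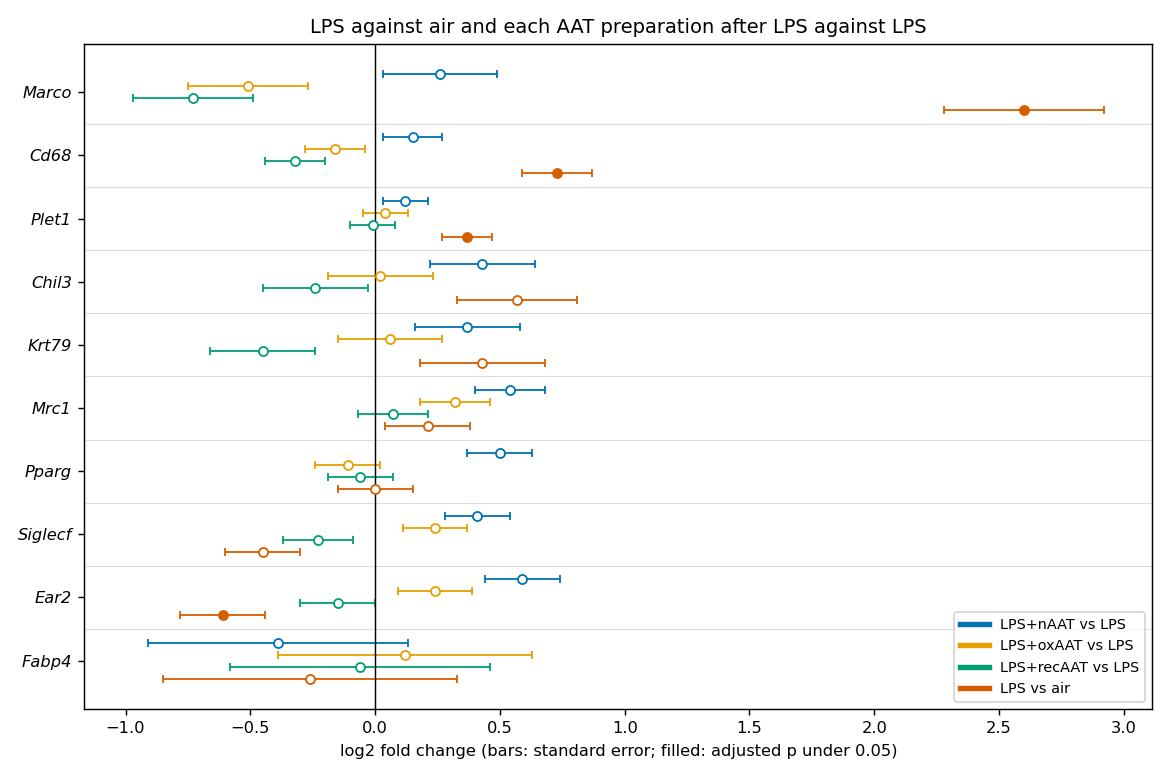
Log2 fold changes (horizontal axis) of each gene for LPS+nAAT, LPS+oxAAT and LPS+recAAT over LPS and for LPS over air, with SE as bars; filled points have an adjusted p under 0.05. The filled points are Marco, Cd68, Plet1 and Ear2 for LPS over air, and no AAT comparison has one.

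In LPS+oxAAT lungs no member passed the test against LPS lungs. Over all genes 4.71% were called between LPS+oxAAT and LPS, and of the members none was, by edgeR or by the DESeq2 Wald test, with 2 at an unadjusted p under 0.05. The median of the 10 was 0.05. Those 2 were Marco, with 6.44, 7.857, 13.64, 9.353 and 7.561 CPM in LPS+oxAAT lungs (-0.51 ± 0.24, edgeR adjusted p = 0.229), and Mrc1, with 98.88, 124.4, 138.6, 115.5 and 123.7 CPM (0.32 ± 0.14, 0.204). Of the LPS+oxAAT lungs 3 were below every LPS lung for Marco, and 1 was above every LPS lung for Mrc1. Ear2 had 52.52, 94.65, 67.8, 70.53 and 60.56 CPM (0.24 ± 0.15, 0.371) and Siglecf 16.2, 22.83, 21.52, 20.78 and 17.32 CPM (0.24 ± 0.13, 0.322). In both genes LPS+oxAAT 5102 was the highest and 5101 the lowest of the group. Of the liver and heart muscle genes Alb was higher in LPS+oxAAT than in LPS (1.78 ± 0.51, edgeR adjusted p = 0.0453). Chil3 had 211.0, 271.2, 283.3, 364.5 and 325.5 CPM (0.02 ± 0.21, 0.967), and Cd68 82.24, 123.0, 92.09, 84.22 and 97.18 CPM (-0.16 ± 0.12, 0.47). Krt79 ran from 13.97 to 19.82 CPM (median 19.63; 0.06 ± 0.21, 0.897), Plet1 from 100.8 to 115.4 CPM (median 110.4; 0.04 ± 0.09, 0.846) and Fabp4 from 7.934 to 23.72 CPM (median 13.68; 0.12 ± 0.51, 0.917).

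In LPS+recAAT lungs 9 of 10 members had a negative log2 fold change against LPS lungs, and none passed edgeR's test. Over all genes 8.49% were called between LPS+recAAT and LPS, and 0% with the library set as a term. The median of the members was -0.19, with 3 at an unadjusted p under 0.05, Marco, Cd68 and Krt79. Marco stood at 4.972, 7.162, 10.87, 7.826 and 7.77 CPM in LPS+recAAT lungs, 4 of 5 below every LPS lung (-0.73 ± 0.24, edgeR adjusted p = 0.0581). The DESeq2 Wald test called it (adjusted p = 0.025), as did edgeR without LPS 1103 (0.0296) or without LPS+recAAT 6103 (0.0348). Cd68 had 64.93, 85.97, 96.57, 84.87 and 96.19 CPM (-0.32 ± 0.12, edgeR adjusted p = 0.0987), and was called without LPS 1105 (-0.41, adjusted p = 0.0233). All LPS libraries were in the first set and all LPS+recAAT libraries in the second, so the preparation and the set cannot be told apart except through LPS+oxAAT. With the set as a term Marco was at -1.24 ± 0.41 (adjusted p = 0.583). Krt79 had 13.44, 13.28, 11.85, 15.11 and 8.838 CPM in LPS+recAAT lungs (-0.45 ± 0.21, 0.203). Chil3 had 126.7, 389.1, 280.6, 198.8 and 219.5 CPM (-0.24 ± 0.21, 0.512). Mrc1 had 73.73, 128.2, 113.6, 106.7 and 83.36 CPM (0.07 ± 0.14, 0.825) and Plet1 84.99, 111.4, 131.2, 101.0 and 99.48 CPM (-0.01 ± 0.09, 0.945). LPS+recAAT 6101 was the lowest of its group in 8 of the 10 genes, as was LPS+oxAAT 5101 in its own group. Of all libraries 6101 had the highest share of reads on no annotated feature, 13.1%.

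Each AAT group was also set against air, and these comparisons share the 3 air libraries with that of LPS against air. LPS+nAAT had 6 called, all higher, where 5.62% of all genes were called and 3.95% were higher. They were Marco (2.86 ± 0.32, edgeR adjusted p = 1.4e-06), Chil3 (1.0 ± 0.25, 0.0147), Cd68 (0.88 ± 0.14, 0.000171), Mrc1 (0.75 ± 0.17, 0.00598), Pparg (0.51 ± 0.15, 0.0452) and Plet1 (0.49 ± 0.10, 0.00321). Of the liver and heart genes Ttr (-5.36 ± 1.16, 0.00416), Alb (-2.3 ± 0.58, 0.0163) and Apoa1 (-3.42 ± 0.96, 0.0321) were lower in the same comparison, and their part in the member values was not tested. Chil3 lost its call without air 2101, 2102 or 2105, Mrc1 without air 2105, and Pparg without any 1 of the air libraries or LPS+nAAT 4101, 4102 or 4104. LPS+oxAAT had 3 called higher, where 3.76% of all genes were called and 2.72% were higher, namely Marco (2.09 ± 0.32, 0.00013), Cd68 (0.57 ± 0.14, 0.0176) and Plet1 (0.41 ± 0.10, 0.0205). Without air 2102 or air 2105 only Marco was called.

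LPS+recAAT against air had 4 members called, where 6.83% of all genes were, 4.21% higher and 2.62% lower. Marco (1.86 ± 0.32, edgeR adjusted p = 0.000327) and Plet1 (0.36 ± 0.10, 0.0336) were higher, and Siglecf (-0.68 ± 0.15, 0.00575) and Ear2 (-0.75 ± 0.17, 0.00566) were lower. Ear2 had 45.09, 50.82, 56.5, 55.39 and 57.1 CPM in LPS+recAAT lungs, all below the lowest air lung at 79.88 CPM. Siglecf had 11.84, 12.85, 15.44, 17.41 and 14.26 CPM, all below the lowest air lung at 20.4 CPM. Such separation downward was seen in 7.04% of all genes. Siglecf lost its call without air 2101, and Plet1 without air 2102 or 2105 or LPS+recAAT 6102 or 6103. With the library set as a term none of the 4 was called and 1.62% of all genes were. The log2 fold changes in that fit were Siglecf -0.70 ± 0.25, Ear2 -0.60 ± 0.28, Marco 1.35 ± 0.45 and Plet1 0.27 ± 0.16, with adjusted p between 0.158 and 0.471.

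The preparations were compared with each other in 3 pairs. Recombinant against native AAT separated the members most, with 6 of 10 called lower and none higher in LPS+recAAT, where 1.93% of all genes were called and 0.723% were lower. The median log2 fold change of the members was -0.60, against 0.00 over all genes, and 9 of 10 were negative. The groups did not overlap for 5 members (Ear2, Siglecf, Pparg, Cd68 and Krt79), where 2.05% of all genes were separated downward.

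Ear2 averaged 53.0 ± 5.05 CPM in LPS+recAAT and 88.5 ± 9.96 CPM in LPS+nAAT (SD, n = 5 each), a log2 fold change of -0.74 ± 0.15 (edgeR adjusted p = 0.0126). Siglecf averaged 14.4 ± 2.19 CPM in LPS+recAAT and 22.3 ± 2.64 CPM in LPS+nAAT (-0.64 ± 0.14, adjusted p = 0.0152). Pparg averaged 12.1 ± 1.59 CPM in LPS+recAAT and 17.9 ± 3.19 CPM in LPS+nAAT (-0.57 ± 0.13, 0.0226). The lowest LPS+nAAT lung was above the highest LPS+recAAT lung for each of these 3. Marco averaged 7.72 ± 2.11 CPM in LPS+recAAT and 15.3 ± 4.73 CPM in LPS+nAAT (-1.0 ± 0.24, 0.0302), with LPS+recAAT 6103 at 10.87 CPM above LPS+nAAT 4104 at 10.22 CPM. Cd68 (-0.47 ± 0.12, 0.0405) and Krt79 (-0.82 ± 0.21, 0.0454) were also lower. Chil3 (-0.67 ± 0.21, 0.102) and Mrc1 (-0.47 ± 0.14, 0.0905) did not pass, and Plet1 was at -0.13 ± 0.09 (0.516).

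These calls were close to the threshold, and the 2 groups lay in different library sets. With the set as a term none was called. The log2 fold changes were then Marco -1.5, Krt79 -0.83, Siglecf -0.66, Ear2 -0.59, Pparg -0.58 and Cd68 -0.30. Adjusted p lay between 0.315 and 0.57, and in that fit 0 of all 17148 genes were called. The size of these estimates depends on LPS+oxAAT, which had 2 libraries in the first set and 3 in the second. Whether preparation or set lay behind the 6 calls was not tested by these values. Without LPS+recAAT 6101 only Ear2 was called, and without LPS+nAAT 4101, 4104 or 4105 or LPS+recAAT 6104 there were 3. Ear2 kept its call without any 1 of the 10 libraries. Krt79 lost its call without any 1 library other than LPS+nAAT 4102 (adjusted p up to 0.125). Marco lost its call without LPS+nAAT 4101, 4102 or 4105 or LPS+recAAT 6101, 6102, 6104 or 6105 (up to 0.116). Cd68 lost its call without LPS+nAAT 4101, 4102, 4104 or 4105 or LPS+recAAT 6101, 6102 or 6104 (up to 0.146). Pparg lost it without LPS+nAAT 4104 or LPS+recAAT 6101, and Siglecf without LPS+recAAT 6101.

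**Figure D5:**
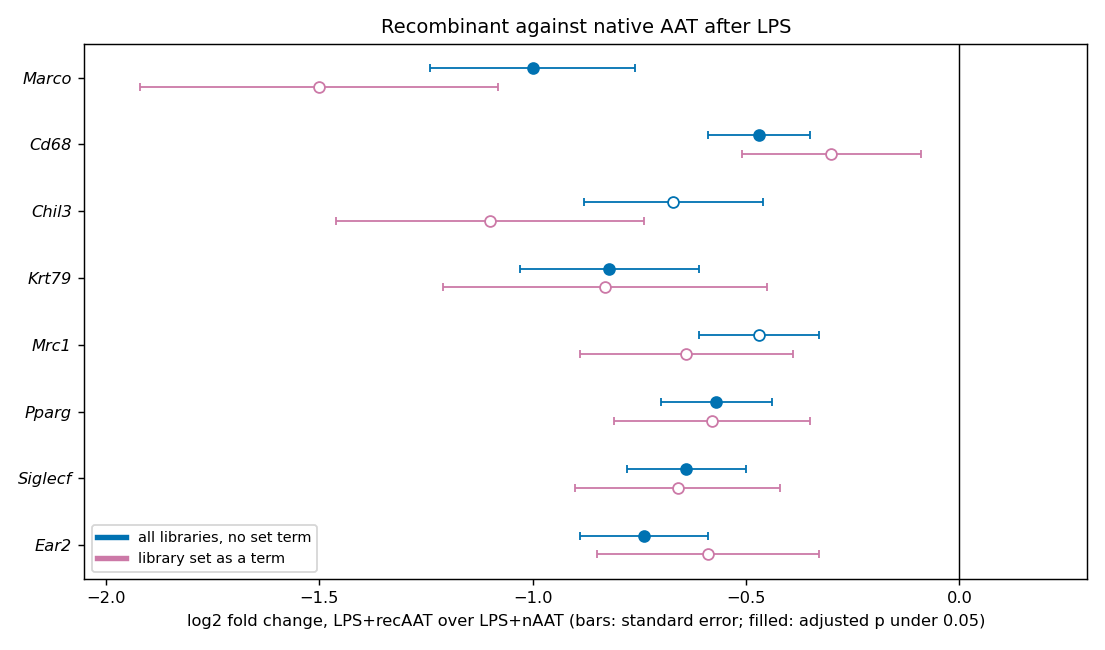
Log2 fold changes of LPS+recAAT over LPS+nAAT (horizontal axis) for the 8 members called under at least 1 setting, with SE as bars, fitted with all libraries and no set term or with the library set as a term; filled points have an adjusted p under 0.05. The 6 filled points of the fit without the term lie between -1.0 and -0.47, and all points with the term are open, with wider bars, and also below 0.

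Other macrophage genes were also called lower between these preparations, where 0.723% of all genes were lower. Of 29 other alveolar macrophage genes 2 were lower in LPS+recAAT than in LPS+nAAT, Ear1 (-0.80 ± 0.18, edgeR adjusted p = 0.0247) and Fabp1, a fatty acid binding protein (-0.66 ± 0.17, 0.0405), with a list median of -0.25. Of 14 pan-macrophage genes Ctsd (-0.42 ± 0.10, 0.0317) and Ctss (-0.55 ± 0.13, 0.0317), both lysosomal cathepsins, were lower, with a median of -0.30. The summed level of the pan-macrophage genes was 8670 to 12700 CPM in LPS+recAAT and 11300 to 13800 CPM in LPS+nAAT. Lyz2 held a large part of it, with means of 7580 CPM in LPS+recAAT and 8910 CPM in LPS+nAAT. At an unadjusted p under 0.05 by edgeR, in either direction, were 12 of the 29 and 11 of the 14 genes. Over all 17148 genes there were 2549. Cd14 of the monocyte list was higher in LPS+recAAT (0.64 ± 0.12, 0.00938). With the library set as a term these 5 genes were no longer called, at -0.76 for Ear1, -0.60 for Fabp1, -0.45 for Ctsd, -0.58 for Ctss and 0.49 for Cd14. The sums of the monocyte and interstitial list overlapped, at 3350 to 4270 CPM in LPS+recAAT and 3460 to 4090 CPM in LPS+nAAT.

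Oxidized against native AAT had 1 member called lower, where 0.344% of all genes were called and 0.128% were lower. Pparg stood at 9.48, 13.59, 10.57, 12.14 and 12.4 CPM in LPS+oxAAT lungs, all below the 15.13 to 23.28 CPM of LPS+nAAT lungs. Such separation downward was seen in 1.32% of all genes. The log2 fold change of Pparg was -0.62 ± 0.13 (edgeR adjusted p = 0.0407). The call was lost without LPS+nAAT 4101, 4102, 4103 or 4104 or LPS+oxAAT 5101, 5103 or 5104, at log2 fold changes between -0.65 and -0.51. Within the first set, where LPS+oxAAT had 2 libraries, it was -0.62 with an adjusted p of 0.441. With the set as a term it was -0.63 ± 0.18 and was not called (adjusted p = 0.308). Markers of other cells moved in the same comparison. Of 14 neutrophil genes 3 were lower in LPS+oxAAT, S100a9 (-1.59 ± 0.31, edgeR adjusted p = 0.0373), Clec4d (-0.54 ± 0.11, 0.0385) and S100a8 (-1.5 ± 0.32, 0.0495), with a list median of -0.76 and 10 genes at an unadjusted p under 0.05. The summed level of the list was 244 to 369 CPM in LPS+oxAAT and 291 to 761 CPM in LPS+nAAT. Alb, the liver's albumin gene, was higher in LPS+oxAAT (2.41 ± 0.53, 0.0495). The part of either in the Pparg difference was not tested. Marco, at -0.77 ± 0.24 (0.165), did not pass. Recombinant against oxidized AAT had no member called by edgeR or DESeq2, 3 at an unadjusted p under 0.05 (Siglecf, Ear2 and Krt79), and 0.0175% of all genes called. The 10 log2 fold changes ran from -0.51 (Krt79, ± 0.21) to 0.05 (Pparg, ± 0.13).

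Among genes of the same programme outside the 10, Bhlhe41, a repressor that alveolar macrophages use for self-renewal, was higher with each AAT preparation than with LPS alone. It stood at 32.0 to 38.4 CPM in LPS+nAAT, 28.9 to 42.5 in LPS+oxAAT, 29.7 to 33.0 in LPS+recAAT, 17.3 to 28.2 in LPS and 23 to 26.2 in air. Every lung given AAT was above every LPS lung. Separation upward from LPS was seen in 1.99% of all genes for LPS+nAAT, 1.48% for LPS+oxAAT and 5.48% for LPS+recAAT. Bhlhe41 was the 1 gene called of the 22 inducing signals and factors in each of the 3 comparisons with LPS. That share was near that of all genes for LPS+oxAAT (4.71%) and below it for LPS+recAAT (8.49%). The rises over LPS were 0.59 ± 0.11 with nAAT (edgeR adjusted p = 0.0173), 0.61 ± 0.11 with oxAAT (0.00492) and 0.43 ± 0.11 with recAAT (0.0201), and these 3 comparisons share their LPS libraries. Olr1, a lipoprotein scavenger receptor, rose over LPS with each preparation too, by 0.58 ± 0.13 (0.0338), 0.51 ± 0.13 (0.0227) and 0.51 ± 0.13 (0.013) in the same order. Stab2 (-0.67 ± 0.16, 0.0111) and Stab1 (-0.37 ± 0.12, 0.0472), scavenger receptors of sinusoidal endothelium and some macrophages, fell with recAAT. With the library set as a term Bhlhe41 was at 0.59 ± 0.11 with nAAT (adjusted p = 0.0133), 0.71 ± 0.14 with oxAAT (0.0853) and 0.59 ± 0.20 with recAAT (0.583), so that only the nAAT call was kept. In that fit Olr1 was called with nAAT alone (0.58, 0.0226), at 0.33 with oxAAT (0.818) and 0.23 with recAAT (0.86), and Stab2 (-0.50, 0.747) and Stab1 (-0.18, 0.89) were not called. It called 1.14% of all genes for LPS+nAAT, 0.035% for LPS+oxAAT and 0% for LPS+recAAT against LPS.

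Within groups the members did not vary as a block. After group means were subtracted, correlations of log2 CPM between pairs of members over the 23 libraries ran from -0.33 (Fabp4 and Marco) to 0.77 (Chil3 and Plet1). Cd68 and Ear2 had 0.68, Cd68 and Plet1 0.61, and Mrc1 0.60 with both Plet1 and Pparg. Each member's nearest genes were often not members. Those of Ear2 were Ear1 (0.95), Abhd12 (0.83) and Lgals3 (0.83). Those of Mrc1 were Ly75 (0.91), Lpl (0.88) and Fat1 (0.85), and Cd68 was most like Ctsa (0.91), a gene ID without a symbol (0.91) and Mcemp1 (0.91). Chil3 was most like Hs2st1 (0.86), Slc44a3 (0.84) and Cyp2b10 (0.80), and Plet1 like Atic (0.80), Chil3 (0.77) and 2700049A03Rik (0.75). For Siglecf they were Trbv1 (0.79), Slc2a9 (0.77) and Bace2 (0.77). The highest values were lower for Pparg (Epsti1, 0.74), Krt79 (Gm29590, 0.73) and Marco (Trmt61a, 0.67). Genes in a library share its depth and its dissection, and these values are descriptions.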

How the data were processed

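The authors deposited raw counts per Ensembl gene ID for each lung library, without normalization. Per the labels' protocols, RNA was poly(A)-selected and libraries were stranded. The submitters' processing notes name HTSeq 0.11.1, STAR 2.4.0.1, Trimmomatic in versions 0.36 and 0.38, FastQC 0.11.8 and the build GRCm38. The sources used here do not give the annotation release or the strand setting. From these counts, 5 summary lines were set aside (6.79% to 13.1% of reads on no feature, 1.12% to 1.39% ambiguous, 4.09% to 6.08% not unique), and GENCODE M21 named 40340 of 41388 IDs.

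Counts were scaled by TMM (factors 0.978 to 1.028) and filtered with filterByExpr. All 23 libraries were fitted in 1 model with a mean per group by edgeR 4.0.16 (robust quasi-likelihood, two-sided F test) in R 4.3.3, with Benjamini-Hochberg adjustment over genes for each of 10 comparisons. The fit was tested on simulated data. SE is the log2 fold change divided by the square root of F. P-values measure the spread between mice. Likeness is Pearson's r of log2 CPM (prior count 2) after subtracting group means, and the 3 highest genes per member were taken. All members were named, and up to 4 called genes of smallest adjusted p per other list. The 10 genes, the 15 other lists and the library sets were chosen with earlier results of these data known. Alternatives are listed in the closing section. DESeq2 was version 1.42.0.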

Additional observations from a re-analysis of the deposited data

Results flagged for a closer look

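A single mouse stood apart in 3 of the 40 group and gene combinations tested for it (groups of 5), and chance gives about 1 in 20. LPS 1103 had 15.98 CPM of Pparg, against 11.3 to 12.4 CPM in the other LPS lungs, and 130.3 CPM of Mrc1, against 79.2 to 92.8 CPM. LPS 1104 had 28.5 CPM of Krt79, against 11.4 to 16.1 CPM. LPS 1103 was also the lung highest in Fabp4 and Adipoq, as given in the report.

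Responses that differed between preparations of AAT after the same LPS exposure, by edgeR's test of the difference itself, were these. LPS+oxAAT was below LPS+nAAT in Pparg (log2 fold change -0.62). LPS+recAAT was below LPS+nAAT in Marco (-1.0), Krt79 (-0.82), Ear2 (-0.74), Siglecf (-0.64), Pparg (-0.57) and Cd68 (-0.47). LPS+recAAT and LPS+nAAT lay wholly in different library sets, so the preparation and the set cannot be told apart from these 2 groups alone.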

How the results depend on the processing

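With DESeq2 size factors, or a stricter filter (5 libraries or more with a CPM of 1 or more), every count of called members stayed within 1.5 times its first value. With no filter beyond 1 count there were 2 called members for LPS against air (4 before), 0 for LPS+oxAAT against LPS+nAAT (1 before) and 3 for LPS+recAAT against LPS+nAAT (6 before). The DESeq2 Wald test called 3 for LPS+nAAT against LPS and 1 for LPS+recAAT against LPS, both 0 before, along with 2.5% and 11.3% of all genes. The library set as a term gave 0 for LPS+recAAT against air (4 before), for LPS+oxAAT against LPS+nAAT and for LPS+recAAT against LPS+nAAT. The first set alone gave 1 for LPS+oxAAT against air (3 before) and 0 for LPS+oxAAT against LPS+nAAT, and fitting only those 2 groups also gave 0 for the pair. The cause was not tested.

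Leaving out 1 library in turn gave 2 to 4 called members for LPS against air, 0 to 4 for LPS+nAAT, 0 to 0 for LPS+oxAAT and 0 to 1 for LPS+recAAT against LPS. Against air it gave 4 to 6 for LPS+nAAT, 1 to 3 for LPS+oxAAT and 3 to 5 for LPS+recAAT, and against LPS+nAAT 0 to 1 for LPS+oxAAT and 1 to 5 for LPS+recAAT. Signs that turned belonged to small differences that had not been called. For LPS against air these were Pparg (-0.10 to 0.04) and Fabp4 (-0.76 to 0.28), and for LPS+nAAT against LPS Fabp4 (-0.84 to 0.12). For LPS+oxAAT against LPS they were Chil3 (-0.07 to 0.12), Fabp4 (-0.13 to 0.63) and Krt79 (-0.04 to 0.33). For LPS+recAAT against LPS they were Pparg (-0.11 to 0.04), Fabp4 (-0.36 to 0.45), Plet1 (-0.10 to 0.05) and Mrc1 (-0.03 to 0.20). The set term turned Chil3 (-0.25) and Plet1 (-0.01) for LPS+oxAAT against LPS, as did the first set alone (-0.25 and -0.02), and Fabp4 (0.15), Ear2 (0.01) and Mrc1 (-0.11) for LPS+recAAT against LPS.

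Mouse numbers share last digits between groups, and a replicate block on that digit was tried. Same-numbered mice had deviations correlated at -0.38 to 0.35 over the comparisons, so the numbers were not taken as pairs. The block called 3 members for LPS+nAAT against LPS (0 without it) and turned Pparg to -0.08 for LPS against air. It also called Siglecf for LPS against air (adjusted p = 0.0147) and Mrc1 for LPS+recAAT against LPS+nAAT (0.0411), and ended the calls of Plet1 for LPS (0.0521) and LPS+recAAT (0.0759) and of Pparg for LPS+nAAT (0.0864), each against air. Depth limits Marco most, with 42 reads in its lowest library.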

Other observations

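The share of Ear2 in the counts of Ear1 and Ear2 together, a ratio chosen after its values were seen, was lower after LPS. It was 69.7% ± 2.29 in LPS lungs (SD, n = 5) and 75.9% ± 0.783 in air lungs (SD, n = 3). Groups did not overlap, and an exact permutation test, two-sided, gave p = 0.0357, the smallest value that 5 against 3 lungs allow. Since the values were seen before the ratio was chosen, that p was fixed in advance. It adds nothing to the values themselves. The range was 67.2% to 70.7% in LPS+nAAT, 68.1% to 72.1% in LPS+oxAAT, 68.0% to 72.1% in LPS+recAAT, 66.4% to 72.7% in LPS and 75.2% to 76.8% in air, so every LPS-exposed lung was below every air lung. Ear1 and Ear2 share sequence, and how reads common to both were counted bears on the level of this share.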
